A study of Homo sapiens with 6 samples.

Results

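UMUC3 cells, an established human bladder cancer line, were compared with and without knockdown of circPTK2, which is a circular RNA of PTK2, the gene of focal adhesion kinase. The comparison used the libraries labelled UMUC3, 3 of the 6 in the series: 1 control and 2 circPTK2 knockdown libraries, which the sample titles call siRNA numbers 1 and 2. The other 3 libraries are the same design in T24, another bladder cancer line, and entered the fit only to estimate the spread and to test differences between the lines. RNA was sequenced in bulk, and the authors deposited read counts per transcript. The series title links circPTK2 with PABPC1, SETDB1, epithelial to mesenchymal transition and gemcitabine. Titles speak of siRNAs but the design text of sh constructs, and which reagent was used cannot be settled from them. The labels describe no treatment of the control beyond its name. With 1 control library, a deviation of that library and an effect of the knockdown cannot be told apart, and nothing says that the knockdown libraries came from separate cultures. The p-values below therefore reflect no more than the variation among these libraries, possibly technical. No value is given for circPTK2 itself, since it shares exons with linear PTK2 transcripts, so the knockdown was not checked.

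As background, NF-kB transcription factors are held inactive by inhibitors such as NFKBIA, and once released they raise the genes of those inhibitors, of other feedback proteins and of chemokines. ATF4 is the transcription factor that cells make in larger amounts when amino acids run short or proteins misfold in the endoplasmic reticulum (ER), and it raises genes for amino acid synthesis, transport and tRNA charging. ER chaperones fold newly made secreted and membrane proteins.

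The UMUC3 libraries held 65111683 to 71355753 counts, of which 55071837 to 60056073 fell in named genes, and levels are given as CPM, gene counts scaled to that library total. Where 3 levels stand in a row, they are those of the control, knockdown library 1 and knockdown library 2. The 8 mesenchymal markers summed to 3793 CPM in the control against 3578 and 3689 CPM with knockdown, mostly vimentin. The measured epithelial markers summed to 183, 189 and 168 CPM. Nearly all of it was the keratins KRT8 (86.4, 91.0 and 81.5 CPM) and KRT18 (95.9, 95.1 and 84.3 CPM). CDH1 and EPCAM, of the same group, were at 0 in all 3 libraries. None of 9 luminal urothelial markers reached 5 CPM in all 3. PTPRC, the pan-leukocyte marker, was at 0 in all 3. The measured immune markers summed to 29.1, 54.6 and 51.4 CPM, nearly all of it the lysosomal gene CD68 (28.2, 54.2 and 51.2 CPM; adjusted p = 0.122 by edgeR). Stromal and endothelial markers summed to 2.92, 4.82 and 2.00 CPM. Longer lists of luminal, basal, stromal and immune genes gave 0 calls, with FGFR3 (3.62, 10.8 and 14.3 CPM), EGFR (175, 187 and 242 CPM), RGS5 (0.555, 2.39 and 2.28 CPM) and CD68 nearest. Whether these markers bear on the results below was not tested. The knockdown libraries differed from each other by far more than counting error (chi-square of 129.3 per degree of freedom over 17071 genes).

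Over all genes, 89 were higher and 45 lower in the knockdown libraries (edgeR quasi-likelihood test, adjusted p under 0.05). This is 0.430% and 0.217% of the 20721 genes tested and 0.647% together. These shares stand beside each count of calls in a list below. Receptors and cytoskeletal genes such as DAG1 and MYH9, the tRNA synthetase AARS and the chaperone CALR were among those that rose, and NF-kB feedback genes, CDK4 and the matrix enzyme PLAU among those that fell. In all 134 genes both knockdown libraries lay on the same side of the control. Leaving out 1 knockdown library could thus hardly turn the direction of these genes, so a kept direction adds no support. Their log2 fold changes ran from 0.66 to 7.72 upward and from -0.80 to -7.93 downward. Adjusted p values ran from 0.0214 to 0.0497, in a fit of 4 groups over 6 libraries with 2 residual degrees of freedom. The median absolute log2 difference over all tested genes was 0.47 between knockdown library 1 and the control and 0.46 for knockdown library 2, against 0.27 between the knockdown libraries. Both knockdown libraries were over 2-fold above the control in 1672 genes (8.07%) and over 2-fold below it in 1199 (5.79%). In bulk RNA, fewer cells that carry a transcript and less of it per cell cannot be told apart. At an unadjusted p under 0.05 there were 1911 genes higher (9.22%) and 1579 lower (7.62%). The number of calls rested on the form of the test: the older form of edgeR's test called 10 higher and 3 lower, DESeq2 called 983 higher and 607 lower, and limma-voom called 0 (3648 genes at an unadjusted p under 0.05). Leaving out any 1 knockdown library, UMUC3 or T24, also left 0 edgeR calls (2843 to 2981 genes at an unadjusted p under 0.05), while all 134 genes kept their direction.

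**Figure D1:**
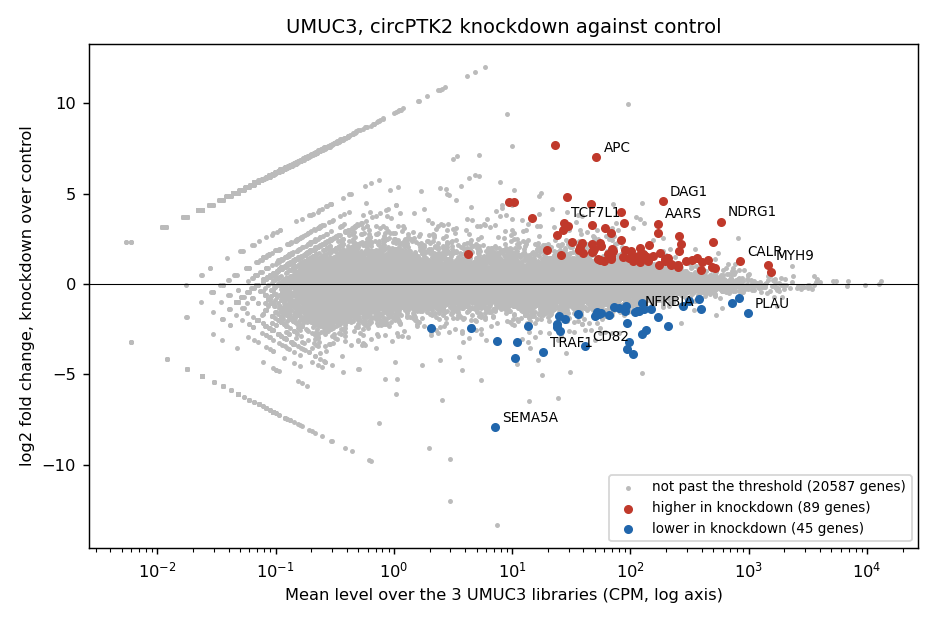
Mean level over the 3 UMUC3 libraries (CPM, log axis) against the fitted log2 fold change of knockdown over control for each of the 20721 tested genes. Red points are the 89 genes called higher and blue points the 45 called lower; grey points did not pass, and many grey points at low levels lie farther from 0 than the called genes.

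The authors assigned the counts to single transcripts, so a gene's total can move when reads pass between similar transcripts. The largest share of a gene's counts that sat in other transcripts between any pair of UMUC3 libraries is called its transcript shift here. Of the 125 called genes with several transcripts, 50 (40%) had a shift of 0.2 or more, against 50.8% of all tested genes with several transcripts. The genes with a shift under 0.2, 6398 of those tested, are called composition-stable. Tested on their own they gave 226 genes higher (3.53%) and 138 lower (2.16%), 5.69% together. All 75 composition-stable genes among the 134 were called again there. That test used the same libraries and counts, so it is no independent check, and it was not rerun with a library left out. Where a gene below is said to have passed among composition-stable genes, this is the test meant.

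The gene with the smallest p value was DAG1 (chromosome 3, 49468703 to 49535618, plus strand, GENCODE 29 on GRCh38), which encodes dystroglycan, a receptor for laminin. It was at 11.6 CPM in the control against 271 and 281 CPM with knockdown, so both knockdown libraries were far above the control. The log2 fold change was 4.57 ± 0.11 (standard error, here and below; edgeR adjusted p = 0.0214), and its main transcript held 83.2, 96.1 and 99.2% of its counts in the 3 libraries. None of the other 14 tested members of the dystroglycan and sarcoglycan complex passed over all genes. SGCB, a sarcoglycan, stood next at 12.7, 58.5 and 57.5 CPM (2.20 ± 0.44, adjusted p = 0.137).

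Among the other genes that rose most, several encode factors acting in the nucleus. TAF7, a subunit of the general transcription factor TFIID, was at 12.1 CPM in the control against 125 and 127 CPM with knockdown (log2 3.38 ± 0.14). SAMD1, which binds unmethylated CpG-rich DNA, went from 7.76 CPM to 122 and 119.5 CPM (3.96 ± 0.17), and THAP4, a zinc finger protein, from 7.08 CPM to 62.6 and 72.4 CPM (3.25 ± 0.19). TCF7L1, a DNA-binding factor of the WNT pathway, went from 3.69 CPM to 38.4 and 39.3 CPM (3.40 ± 0.22). In these 4 genes the knockdown libraries lay close together, and their mean was at least 9.54-fold above the control. TAF7 had a transcript shift of 0.629, so its level is uncertain as that of a gene. MRFAP1 (2.83), EPM2AIP1 (3.21) and SNX22 (2.98), a sorting nexin, rose with a transcript shift under 0.2.

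For other genes of large change the transcripts changed as well. APC, a scaffold of the beta-catenin destruction complex, went from 0.591 CPM to 96.1 and 57.6 CPM, all but a trace of it in ENST00000257430, at 0 in the control. SEMA5A, a guidance semaphorin, went the other way, from 21.4 CPM to 0.0714 and 0.0986 CPM, with its main transcript ENST00000382496 at 21.0 CPM in the control and 0 in both. ZDHHC7, a palmitoyltransferase (shift 0.991), FMNL3, a formin (0.967), C22orf46 (0.883), FLOT2, a flotillin (0.855), MSRB3, a methionine sulfoxide reductase (0.752), and SPATS2L (0.757) rose with high shifts too. PTPRS, a receptor phosphatase (0.934) and ARID4B, a chromatin protein (0.584) fell with them. These levels are uncertain as levels of a gene.

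NF-kB feedback and target genes stood mostly lower in the knockdown libraries. Of 27 tested feedback and target genes, 4 fell over all genes (TRAF1, CD82, NFKBIE and NFKBIA) and 0 rose, beside 0.217% and 0.430% of all genes. Both knockdown libraries lay below the control in 18 of them and above it in 6, against 37.1% and 35.6% of all tested genes. Their median log2 fold change was -1.10, with -1.27 for knockdown library 1 and -1.25 for library 2, where the median of all tested genes was 0. Among the composition-stable members 7 of 14 fell, beside 2.16% of all such genes. Of the immune markers, PTPRC was at 0 in all 3 libraries, and the summed level of the measured ones was higher with knockdown, as given above. The longer immune list had a median of -1.35 over 6 tested genes, with the sign opposite to that sum, since 4 genes under 3 CPM stood lower.

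The inhibitors of NF-kB come first in this group. NFKBIA, the inhibitor that holds RELA in the cytoplasm, was at 202 CPM in the control against 73.6 and 67.1 CPM with knockdown (log2 -1.52 ± 0.13, edgeR adjusted p = 0.0470). NFKBIE, a related inhibitor, was at 51.6, 9.76 and 9.81 CPM (-2.40 ± 0.17, adjusted p = 0.0431). In both the knockdown libraries nearly coincided, at less than 40% of the control. NFKBIB, the third inhibitor of this kind, did not follow them: it was at 24.6 CPM in the control against 49.0 and 46.8 CPM with knockdown (adjusted p = 0.147). BCL3, an atypical family member, also stood higher, at 37.0, 65.4 and 59.9 CPM, without passing (adjusted p = 0.137). TNFAIP3, the ubiquitin-editing enzyme A20, was at 45.3 CPM in the control against 16.2 and 17.9 CPM with knockdown and fell among composition-stable genes (adjusted p = 0.0415 there, 0.0939 over all genes).

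Among surface and signalling proteins of the group the changes were larger. TRAF1, an adaptor of TNF receptors on the minus strand of chromosome 9, 120902393 to 120929173, stood at 47.7, 4.17 and 2.83 CPM, a 13.7-fold difference (log2 -3.77 ± 0.27, adjusted p = 0.0431), with a transcript shift of 0.00113. CD82, a tetraspanin, was at 106 CPM in the control against 8.35 and 10.9 CPM with knockdown (-3.45 ± 0.23, adjusted p = 0.0421). Neither gene's knockdown libraries came near the control. TNFRSF9, a TNF receptor, went from 4.85 CPM to 0.838 and 0.526 CPM and CD83, a surface glycoprotein, from 25.8 CPM to 8.99 and 9.48 CPM; both passed among composition-stable genes only (adjusted p = 0.0419 and 0.0415). BIRC3 and TNIP1, other feedback genes, differed between the knockdown libraries, with BIRC3 at 81.5, 0.161 and 34.3 CPM and TNIP1 at 204, 210.4 and 92.6 CPM.

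**Figure D2:**
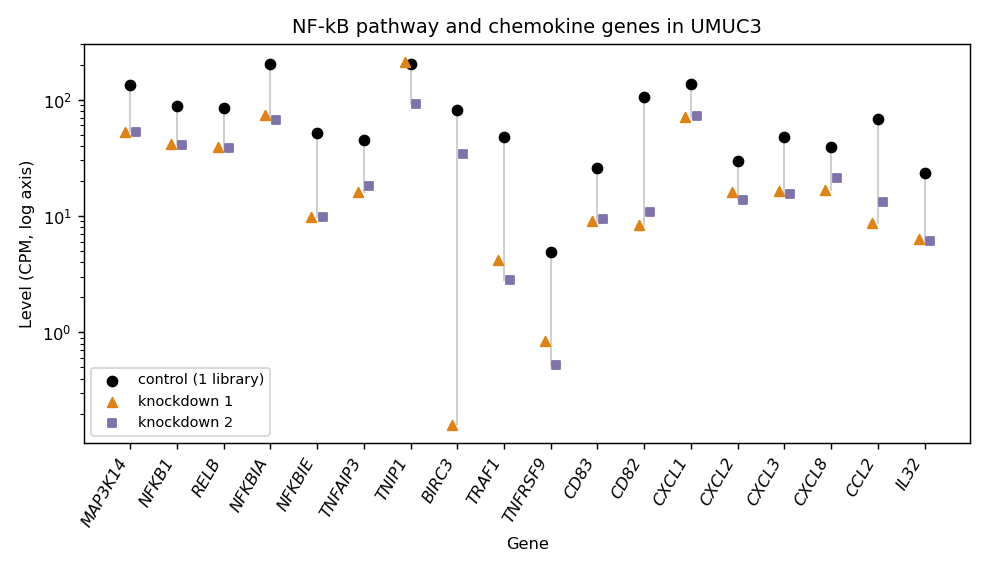
Level (CPM, log axis) of NF-kB pathway and chemokine genes in the 3 UMUC3 libraries: black circles are the control, orange triangles knockdown library 1 and purple squares knockdown library 2. The genes drawn were picked with the results known, and members that stood higher, such as NFKBIB and BCL3, are not shown. For most genes drawn the knockdown points lie together below the control, such as NFKBIE at 9.76 and 9.81 CPM against 51.6 CPM. BIRC3 and TNIP1 split.

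Upstream, the kinase MAP3K14, which drives the noncanonical arm of the pathway, was at 133 CPM in the control against 53.1 and 52.8 CPM with knockdown (-1.33 ± 0.12, adjusted p = 0.0470), although 0.839 of its counts changed transcript. RELB and NFKB1, subunits of the factor itself, were at 84.8, 39.2 and 38.1 CPM and at 87.4, 41.7 and 40.5 CPM. Both fell among composition-stable genes (adjusted p = 0.0258 and 0.0328) and not over all genes (0.0729 and 0.0752). RELA stood at 143, 126 and 68.4 CPM, with the control nearer to library 1 than library 1 to library 2 (adjusted p = 0.562). The subunit list of 11 genes thus had 1 call, downward, and a median of -0.53.

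The promoters of NFKBIA and TNFAIP3, which encode inhibitors of the pathway, are shown beside that of TRAF1, the called NF-kB gene with the largest change. They are the 250 bases before the RefSeq start (GRCh38.p14), read in the direction of the gene. Capitals mark matches to the NF-kB (kB) consensus on either strand. The consensus is GGGRNNYYCC, where R is A or G, Y is C or T and N is any base. The genes and motifs shown were chosen with the results known. NFKBIA lies at chr14:35404750-35404999, minus strand, TNFAIP3 at chr6:137867009-137867258, plus strand, and TRAF1 at chr9:120929172-120929421, minus strand.
NFKBIA: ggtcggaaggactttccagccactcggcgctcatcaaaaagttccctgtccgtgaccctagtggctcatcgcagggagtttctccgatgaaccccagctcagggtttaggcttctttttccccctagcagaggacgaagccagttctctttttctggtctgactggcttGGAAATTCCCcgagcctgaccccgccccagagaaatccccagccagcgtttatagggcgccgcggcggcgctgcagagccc
TNFAIP3: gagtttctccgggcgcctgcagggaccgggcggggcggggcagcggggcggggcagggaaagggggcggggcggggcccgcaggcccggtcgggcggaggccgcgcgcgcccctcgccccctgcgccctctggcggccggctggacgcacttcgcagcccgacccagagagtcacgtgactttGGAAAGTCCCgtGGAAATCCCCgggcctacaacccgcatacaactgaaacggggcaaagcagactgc
TRAF1: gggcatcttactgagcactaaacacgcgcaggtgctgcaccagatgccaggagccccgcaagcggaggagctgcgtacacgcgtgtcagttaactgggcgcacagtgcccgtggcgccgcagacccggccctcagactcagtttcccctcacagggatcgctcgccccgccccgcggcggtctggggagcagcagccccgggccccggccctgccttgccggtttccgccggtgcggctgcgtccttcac
The NFKBIA match began 81 bases before the start, and the TNFAIP3 matches 67 and 55 bases before it. In windows of 250 bases before to 50 after the start, 11 of the 26 list genes with a promoter in the table held such a match, against 2958 of all 27305 promoters (10.8%). The list genes with a match include BCL3, which stood higher, and BIRC3, whose knockdown libraries split. TRAF1 had none in this window. A match describes letters only.

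Chemokine and cytokine genes gave 0 calls among 23 tested over all genes, with a median of -0.29 (-0.59 and -0.10 for the single libraries). Over the 10 members of at least 5 CPM on average the median was -0.97. CXCL1, which recruits neutrophils, was at 136, 70.3 and 71.9 CPM, and CCL2, which recruits monocytes, at 68.0, 8.70 and 13.2 CPM. Both fell among composition-stable genes (adjusted p = 0.0186 and 0.0258; 0.0527 and 0.0587 over all genes). CXCL8 was at 39.3, 16.7 and 21.0 CPM, CXCL3 at 47.6, 16.4 and 15.4 CPM and IL32 at 23.3, 6.28 and 6.15 CPM, none of them past the threshold. Most other listed cytokines were close to 0: IL1A and IL1B stayed under 0.4 CPM in all 3 libraries. Both knockdown libraries were below the control in 13 of the list and above it in 2.

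The IL-6 receptor chains moved apart. IL6R, the ligand-binding chain, was at 1.72, 22.3 and 20.3 CPM (3.63 ± 0.28, adjusted p = 0.0439), while IL6ST, the signalling chain gp130, was at 326, 90.9 and 94.5 CPM (-1.81 ± 0.087, adjusted p = 0.0284). Both knockdown libraries thus lay above the control for IL6R and below it for IL6ST, which had a shift of 0.448.

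Interferon response genes gave 0 calls among 28, with a median of -0.20; the smallest p was that of IFITM2, at 2.02 CPM in the control against 0.499 and 0.592 CPM with knockdown (adjusted p = 0.0702). Of 18 class I and antigen-processing genes, 2 were called, both upward, with CALR among them, beside 0.430% of all genes called higher. The list's median was nevertheless -0.51, with both knockdown libraries below the control in 14 genes. TAP2, a subunit of the peptide transporter, was at 207, 129 and 132 CPM and fell among composition-stable genes (adjusted p = 0.0392). B2M, the light chain, was at 223, 188 and 188 CPM and HLA-B at 32.1, 21.7 and 16.7 CPM, neither past the threshold.

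Genes of the amino acid response stood higher in the knockdown libraries, with 0 of 27 called over all genes. Both libraries were above the control in 22 of them and below it in 3, against 35.6% and 37.1% of all genes, and the list's median of 0.61 (0.59 and 0.55 for the single libraries) was the highest of the lists with 5 or more tested members. ATF4 itself was at 289.9, 425 and 431 CPM (adjusted p = 0.0803), and DDIT3, a factor that acts with it, at 4.75, 14.1 and 15.1 CPM (adjusted p = 0.105).

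Feedback and signalling targets of the pathway stood higher too. CHAC1, which degrades glutathione, was at 0.878, 8.06 and 8.86 CPM (3.27 ± 0.33, adjusted p = 0.0541), and SESN2, a leucine sensor that restrains mTORC1, at 21.2, 48.9 and 49.7 CPM (1.22 ± 0.14, 0.0653). DDIT4, another restraint on mTORC1, was at 54.1 CPM in the control against 149.7 and 133 CPM with knockdown (1.39 ± 0.14) and rose among composition-stable genes (adjusted p = 0.0219; 0.0541 over all genes). The knockdown libraries of each lay together and at least 2-fold above the control. TRIB3, a pseudokinase that feeds back on ATF4, split more, at 34.2, 113 and 67.0 CPM.

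In serine synthesis, PHGDH was at 39.7, 95.4 and 77.1 CPM, PSAT1 at 122, 217 and 225 CPM and PSPH at 8.24, 17.2 and 18.3 CPM, so all 3 enzymes stood higher in both libraries without passing (adjusted p = 0.103, 0.0699 and 0.115). Among amino acid transporters, SLC38A2 was at 503 CPM in the control against 781 and 891 CPM with knockdown and rose among composition-stable genes (adjusted p = 0.0449). SLC7A5 was at 319, 437 and 415 CPM and SLC7A11, the cystine carrier, at 33.0, 47.3 and 53.5 CPM. ATF5, also placed in this pathway, stood the other way, at 103, 22.3 and 13.0 CPM (adjusted p = 0.0780, shift 0.652).

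Of the 20 cytosolic tRNA synthetases only AARS, which charges alanine tRNA, passed over all genes. It was at 24.2 CPM in the control against 257 and 230.3 CPM with knockdown, 10.1-fold higher (3.33 ± 0.14, edgeR adjusted p = 0.0237), and its main transcript held 84.4, 97.9 and 98.0% of its counts. SARS, for serine, was at 135, 217 and 211 CPM and rose among composition-stable genes (adjusted p = 0.0360). RARS, for arginine, was at 186 CPM in the control against 118 and 122 CPM with knockdown (adjusted p = 0.111). The list's median was 0.26, and 12 genes were above the control in both libraries and 5 below.

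ER chaperones and folding enzymes shifted upward by a smaller amount, with a median of 0.29 and 16 of 24 above the control in both libraries and 1 below. CALR, the calcium-binding lectin chaperone, was at 442 CPM in the control against 1111 and 995 CPM with knockdown and was the only call over all genes (1.25 ± 0.10, adjusted p = 0.0449). HSPA5, the main ER chaperone BiP, was at 557, 794 and 806 CPM (0.52 ± 0.063, adjusted p = 0.0671). HYOU1 (0.61), PDIA4 (0.51) and HSP90B1 (0.47), which assist folding, rose among composition-stable genes (adjusted p = 0.0317, 0.0419 and 0.0480). CANX, the membrane-bound relative of CALR, was the gene with both libraries below the control, at 1765 CPM in the control against 1248 and 1269 CPM with knockdown (adjusted p = 0.126, shift 0.920).

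Sensors, transcription factors and degradation genes of the unfolded protein response showed no common direction (median 0.021, 0 of 24 called). ERN1, the sensor IRE1, was at 33.4, 16.1 and 16.3 CPM and fell among composition-stable genes (adjusted p = 0.0377), while XBP1, whose RNA IRE1 splices, was at 24.9, 35.6 and 56.6 CPM (adjusted p = 0.297). Cytosolic heat shock genes had a median of 0.0062 and 1 call, HSPH1, a co-chaperone of HSP70. It was at 54.2 CPM in the control against 148 and 148 CPM with knockdown (1.45 ± 0.11, shift 0.381). BAG3, another co-chaperone, was at 321, 189 and 189.5 CPM and fell among composition-stable genes (adjusted p = 0.0279).

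**Figure D3:**
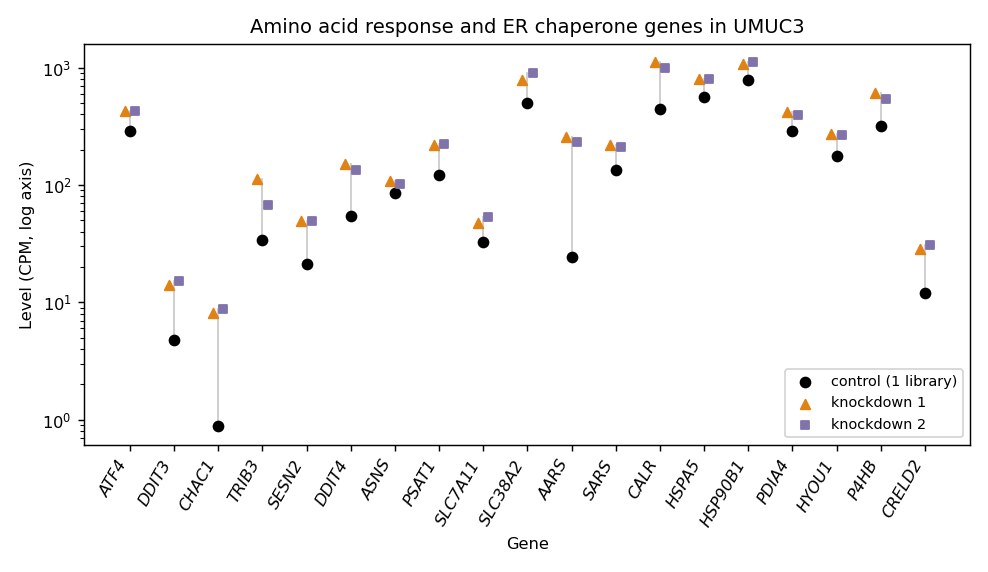
Level (CPM, log axis) of amino acid response, tRNA synthetase and ER chaperone genes in the 3 UMUC3 libraries, with black circles for the control, orange triangles for knockdown library 1 and purple squares for library 2. The genes drawn were picked from members that stood higher, so RARS, ATF5 and CANX, which stood lower, are not shown; in all 19 both knockdown points lie above the control, with AARS and CHAC1 farthest apart; only AARS and CALR passed over all genes.

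The promoters of CALR, HSPA5 and CHAC1 are shown as the called chaperone, the reference gene of the ER stress element and the amino acid gene with the largest change. As above they are the 250 bases before the RefSeq start on GRCh38.p14 in the direction of the gene: CALR at chr19:12938359-12938608, plus strand, HSPA5 at chr9:125241344-125241593, minus strand, and CHAC1 at chr15:40953221-40953470, plus strand. Capitals mark the ER stress element (CCAAT, any 9 bases, then CCACG) in CALR and HSPA5 and the ATF4 composite site (TGATG, any base, then AA) in CHAC1, each searched on both strands.
CALR: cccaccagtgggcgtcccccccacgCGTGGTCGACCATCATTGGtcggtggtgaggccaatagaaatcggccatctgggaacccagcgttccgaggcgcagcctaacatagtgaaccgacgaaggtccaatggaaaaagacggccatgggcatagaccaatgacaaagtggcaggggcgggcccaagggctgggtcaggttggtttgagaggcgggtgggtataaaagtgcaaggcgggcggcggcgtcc
HSPA5: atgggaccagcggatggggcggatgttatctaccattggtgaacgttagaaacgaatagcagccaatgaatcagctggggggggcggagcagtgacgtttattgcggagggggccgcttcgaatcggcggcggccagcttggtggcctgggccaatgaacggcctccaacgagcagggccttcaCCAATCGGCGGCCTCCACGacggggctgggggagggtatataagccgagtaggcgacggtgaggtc
CHAC1: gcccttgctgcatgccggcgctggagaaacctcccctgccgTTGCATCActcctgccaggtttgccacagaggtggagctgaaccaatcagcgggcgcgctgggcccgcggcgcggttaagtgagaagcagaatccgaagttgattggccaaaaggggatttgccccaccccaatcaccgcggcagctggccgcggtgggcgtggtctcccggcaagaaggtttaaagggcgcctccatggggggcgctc
In the windows from 250 bases before to 50 after the start, the ER stress element occurred in 22 of 27305 promoters (0.0806%) and in 5 of 23 ER chaperone genes. These were CALR, HSPA5, HSP90B1, CRELD2 and also CANX, which stood lower. The ATF4 composite site occurred in 1003 promoters (3.67%) and in 6 of 23 amino acid response genes with a promoter in the table.

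Cholesterol synthesis genes stood lower, with a median of -0.39 and 16 of 26 below the control in both libraries and 4 above. Over all genes 1 of them was called, downward. MSMO1 (-0.85), SQLE, the squalene epoxidase (-0.71), and IDI1, the isopentenyl isomerase (-1.14), fell among composition-stable genes (adjusted p = 0.0324, 0.0331 and 0.0484). The core of the sterol element (TCAC, any base, then CCAC, on either strand) occurred in 313 promoters (1.15%) and in 1 of 20 of these genes, SREBF2. Fatty acid genes had a median of -0.22 and 0 calls among 18, with the smallest p for the elongase ELOVL6 (130.2, 74.8 and 74.5 CPM).

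Hypoxia targets and glycolytic genes had a median of 0.22 and 2 calls upward among 36, beside 0.430% of all genes called higher. NDRG1, a gene raised by hypoxia, iron loss and cell stress, was at 76.2 CPM in the control against 847 and 809 CPM with knockdown, 10.9-fold higher (3.44 ± 0.10, adjusted p = 0.0235) and with a shift of 0.460. BNIP3L, a mitophagy receptor, was at 96.5, 237 and 270.4 CPM (1.39 ± 0.13, adjusted p = 0.0470). EPAS1, the factor HIF-2 alpha, rose among composition-stable genes (from 158 CPM to 268 and 265 CPM, adjusted p = 0.0257), as did ADM (from 73.6 CPM to 148 and 134 CPM) and PFKFB4 (from 79.0 CPM to 142 and 131 CPM). HIF1A stood lower, at 259, 188 and 202 CPM (adjusted p = 0.152), and VEGFA was at 69.8, 94.8 and 88.1 CPM (adjusted p = 0.266).

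Among lysosome and autophagy genes 0 of 26 passed over all genes. SQSTM1, the autophagy receptor p62, was nearest, at 977, 310.2 and 292 CPM (-1.70 ± 0.16, adjusted p just over the threshold of 0.05), and MAP1LC3B, which it binds, was at 19.6, 5.76 and 5.98 CPM; both fell among composition-stable genes (adjusted p = 0.0223 and 0.0219). NRF2 targets, heme and ferritin genes gave 0 calls among 23 and a median of -0.057. Among their composition-stable members FTH1, ferritin heavy chain (0.57), and HMOX1, heme oxygenase (0.71), rose, and TXNRD1, thioredoxin reductase (-0.72), and PGD (-0.72) fell.

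Cell cycle regulators changed singly. Of 26 cyclins, kinases and inhibitors 3 fell over all genes, beside 0.217% of all tested genes, and the median was 0. CDK4, the D cyclin kinase, was at 303 CPM in the control against 51.4 and 50.2 CPM with knockdown (-2.57 ± 0.10, adjusted p = 0.0237). CDKN1A, the inhibitor p21, was at 444, 95.6 and 80.8 CPM (-2.33 ± 0.15, adjusted p = 0.0421, shift 0.455), and RBL1, the pocket protein p107, at 55.4, 14.8 and 13.9 CPM (-1.95 ± 0.14, 0.0432). A kinase that promotes the cycle and proteins that restrain it thus stood lower in the same libraries. E2F1 was at 44.0, 92.0 and 81.2 CPM (adjusted p = 0.0835), and CCNB2, a mitotic cyclin, rose among composition-stable genes (from 103 CPM to 161 and 162 CPM, adjusted p = 0.0342).

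The larger proliferation lists moved little. DNA replication genes had a median of 0.17 with 0 of 34 called, and 22 above the control in both libraries; POLE, a replicative polymerase, was nearest at 69.9 CPM in the control against 180.2 and 184 CPM with knockdown (adjusted p = 0.0702). Genes of G2/M and mitosis had a median of 0.15 and 0 calls among 29; CENPF, a kinetochore protein, rose among composition-stable genes (from 206 CPM to 351 and 409 CPM, adjusted p = 0.0446). Targets of p53 had 1 call among 25, CDKN1A, which fell, beside 0.217% of all genes called lower. Their median was -0.18. Genes of the BCL2 family and apoptosis gave 0 calls among 27 and had a median of 0.027. Genes of gemcitabine transport and metabolism, which the series title bears on, gave 0 calls among 22 and a median of 0.0025. RRM2B, a p53-controlled ribonucleotide reductase subunit, was at 59.9, 24.7 and 26.6 CPM and fell among composition-stable genes (adjusted p = 0.0342).

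Genes of matrix, adhesion and cell shape held calls in both directions. In the basement membrane list COL4A1, a type IV collagen chain, rose (7.17, 25.4 and 26.8 CPM; 1.86 ± 0.12, adjusted p = 0.0406), and LAMA5, a laminin chain, fell (449.7, 184 and 194 CPM; -1.25 ± 0.12, adjusted p = 0.0495). Among proteases and inhibitors PLAU, urokinase, fell (1796, 587 and 566 CPM, log2 -1.64 ± 0.078), while ADAM19 rose (37.5, 139.6 and 128 CPM, log2 1.84 ± 0.11, shift 0.611). Most PLAU counts of the control sat in ENST00000446342, at 1391 CPM against 6.26 and 4.07 CPM, while its other main transcript ENST00000372764 went from 345 to 564 and 536 CPM, so the direction differed between its transcripts. MMP9, a gelatinase, went from 33.5 CPM to 3.85 and 3.35 CPM without passing (adjusted p = 0.0630). ITGA2, a collagen-binding integrin chain, fell (195, 60.7 and 70.0 CPM, log2 -1.58 ± 0.12, shift 0.273). ITGB3 rose among composition-stable genes (from 15.5 CPM to 38.2 and 35.1 CPM, adjusted p = 0.0366).

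Mesenchymal markers had a median of 0.37 (0.13 and 0.28 for the single libraries) and 1 call among 24, beside 0.430% of all genes called higher. Over the 16 members of at least 5 CPM on average the median was 0.16. The call was the collagen COL5A1 (21.5, 119 and 109 CPM; 2.41 ± 0.19, shift 0.808). SNAI2, a repressor of epithelial genes, was at 1.22, 4.19 and 5.72 CPM (adjusted p = 0.108), and N-cadherin, CDH2, at 56.6, 77.5 and 78.2 CPM (adjusted p = 0.137). SPARC, a matrix glycoprotein, stood lower, at 374 CPM in the control against 238 and 227 CPM with knockdown (adjusted p = 0.0605). Epithelial junction and keratin genes had 1 call among 19, CLDN1, a tight junction claudin, which fell (9.78, 2.02 and 1.53 CPM; -2.47 ± 0.18, adjusted p = 0.0431). Their median of 0.49 was 0.35 over the 7 members of at least 5 CPM on average; others were near 0 counts, such as DSP, at 0 in the control against 0.143 and 0.0657 CPM with knockdown.

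Actin and tubulin genes had 21 of 26 fold changes above 0, against 49.4% of all tested genes, and a median of 0.36. They had 2 calls, both upward, beside 0.430% of all genes called higher. MYH9, the heavy chain of nonmuscle myosin, was at 870.4 CPM in the control against 1793 and 1738 CPM with knockdown (1.02 ± 0.055, adjusted p = 0.0336), with a shift of 0.00235. TUBB2B went from 0.663 CPM to 15.7 and 14.8 CPM; it has a near-identical paralog, so its level is uncertain. TPM2, a tropomyosin, rose among composition-stable genes (from 295 CPM to 584 and 529 CPM, adjusted p = 0.0306). Of the nuclear lamins, LMNB1 fell (208, 72.4 and 74.3 CPM; -1.50 ± 0.14, adjusted p = 0.0475), while LMNA (from 553 CPM to 969 and 941 CPM) and LMNB2 (from 383 CPM to 857 and 774 CPM) rose among composition-stable genes (adjusted p = 0.0240 and 0.0258). The control was thus the highest library for LMNB1 and the lowest for the other lamins. Focal adhesion proteins gave 0 calls among 24 (median 0.030); VASP, which promotes actin filament growth, rose among composition-stable genes (111, 186 and 182 CPM, adjusted p = 0.0414).

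Growth factors and their receptors gave 0 calls among 27 (median 0.30, and 0.081 over the 22 members of at least 5 CPM on average); PDGFC, a ligand, was nearest (10.3, 38.5 and 47.4 CPM, adjusted p = 0.0547, shift 0.755). The WNT list had 4 calls among 29, all upward, beside 0.430% of all genes called higher: TCF7L1 and APC as above, the co-receptor LRP6 (17.3, 69.6 and 59.9 CPM, shift 0.984) and the secreted antagonist DKK1 (1.72, 5.83 and 5.19 CPM; 1.68 ± 0.15, adjusted p = 0.0470). Its median was 0.10, so the list as a whole lay near 0. WNT7B, a ligand, rose among composition-stable genes (from 40.3 CPM to 124 and 116 CPM, adjusted p = 0.0186). In the TGF-beta and BMP list SKI, a repressor of SMAD activity, rose (52.7, 160.2 and 171 CPM; 1.65 ± 0.11, adjusted p = 0.0421). The list had 1 call in each direction among 28 and a median of 0.17. ID1 and ID3, BMP targets, rose among composition-stable genes (from 237 CPM to 460.1 and 419.7 CPM and from 165 CPM to 342 and 297 CPM; adjusted p = 0.0253 and 0.0357). Immediate early and AP-1 genes gave 0 calls among 24, with 18 above the control in both libraries and a median of 0.42; JUND was at 46.8, 109.7 and 97.5 CPM and JUNB at 144, 75.8 and 67.3 CPM. Of the MAP kinase feedback genes, SPRED1 (from 90.8 CPM to 26.7 and 30.8 CPM) and ETV5 (from 136 CPM to 63.8 and 72.4 CPM) fell among composition-stable genes (adjusted p = 0.0240 and 0.0350), with 0 of 21 called over all genes. In the YAP and Hippo list (0 of 22 called) CTGF was at 299, 120.4 and 144 CPM and F3, tissue factor, at 3.83, 8.81 and 8.49 CPM.

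The genes of the series title did not pass in UMUC3. PTK2 stood at 124 CPM in the control against 161 and 394 CPM with knockdown (1.16 ± 0.60, adjusted p = 0.440), with library 2 far above library 1 and a shift of 0.701. PABPC1, the main poly(A)-binding protein, was at 1979, 1512 and 1668 CPM (-0.32 ± 0.084, adjusted p = 0.198), and SETDB1, a histone H3 lysine 9 methyltransferase, at 18.5, 15.9 and 21.5 CPM (0.019 ± 0.40, adjusted p = 1.00). For SETDB1 the control lay between the knockdown libraries. Genes of H3K9 methylation had 18 of 21 fold changes above 0, against 49.4% of all tested genes, with a median of 0.18 and 0 calls. Both knockdown libraries lay above the control in 14 of them and below it in 3, against 35.6% and 37.1% of all tested genes. FAM208A, a subunit of the HUSH complex, was nearest (54.9, 113 and 128 CPM, adjusted p = 0.0685). Poly(A) binding and mRNA decay genes gave 0 calls among 30 (median -0.016), with the decapping enzyme DCP2 nearest (55.6, 18.2 and 25.2 CPM, adjusted p = 0.136). In the small RNA list AGO2, the slicing Argonaute, fell (667, 242 and 269 CPM, log2 -1.38 ± 0.10, adjusted p = 0.0432). DICER1 stood lower without passing, at 269, 174 and 191 CPM (adjusted p = 0.170). DROSHA (21.8, 39.4 and 43.6 CPM) and AGO4 (14.8, 23.2 and 23.9 CPM) stood higher without passing. Both knockdown libraries lay below the control in 9 of the 14 listed genes and above it in 3. RNA interference acts through AGO2, and whether its level bears on any result was not tested.

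Of the genes that fell most, some belong to no list. SF3B4, a spliceosome subunit, was at 241, 29.3 and 22.7 CPM (-3.21 ± 0.18), and NFYA, a CCAAT-binding factor, at 27.3, 2.68 and 3.22 CPM (-3.21 ± 0.23), both composition-stable. HERC2, a ubiquitin ligase (from 275 CPM to 14.4 and 23.4 CPM), PTBP3, a splicing regulator (from 241 CPM to 15.4 and 23.7 CPM), and WSB2 (from 292 CPM to 42.1 and 43.8 CPM) fell as well. CDYL, a chromatin reader (from 50.6 CPM to 10.6 and 10.8 CPM), DCTN4, a dynactin subunit (from 193 CPM to 39.8 and 46.5 CPM), GLYR1, a chromatin protein (from 47.2 CPM to 14.3 and 13.6 CPM), and the antisense transcript SVIL-AS1 (log2 -2.33 ± 0.20) were also among the 20 lowest. No source used here says whether strand was kept, so reads of SVIL-AS1 and SVIL cannot be told apart.

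Lists of basic cell functions had medians near 0. Cytosolic ribosomal protein genes had a median of -0.11, nuclear oxidative phosphorylation genes -0.10, proteasome subunits -0.13, mitochondrially encoded genes -0.069 and splicing factors 0.015, each with 0 calls. Both knockdown libraries lay below the control in 28 of 45 ribosomal protein genes and above it in 6. These counts were 18 and 4 of 30 oxidative phosphorylation genes and 17 and 3 of 27 proteasome subunits. They were 4 and 2 of 10 mitochondrially encoded genes and 13 and 12 of 30 splicing factors. Of all tested genes, 37.1% lay below and 35.6% above. Members with the smallest p of their list were RPL11 (760.5, 1172 and 1068 CPM), PSMA2 (166, 67.4 and 76.4 CPM), MT-CO2 (5034, 5499 and 5884 CPM) and PTBP1 (157, 267 and 261 CPM). Replication-dependent histones, whose RNAs lack a poly(A) tail, had a median of 0.26 and 0 calls among 27, with HIST1H2AC nearest (1.22, 3.30 and 4.53 CPM) and 1 member of at least 5 CPM on average. Chromatin remodellers had 0 calls among 29 and a median of -0.023; CHD6, a helicase of this group, fell among composition-stable genes (89.3, 32.5 and 36.1 CPM, adjusted p = 0.0366).

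**Figure D4:**
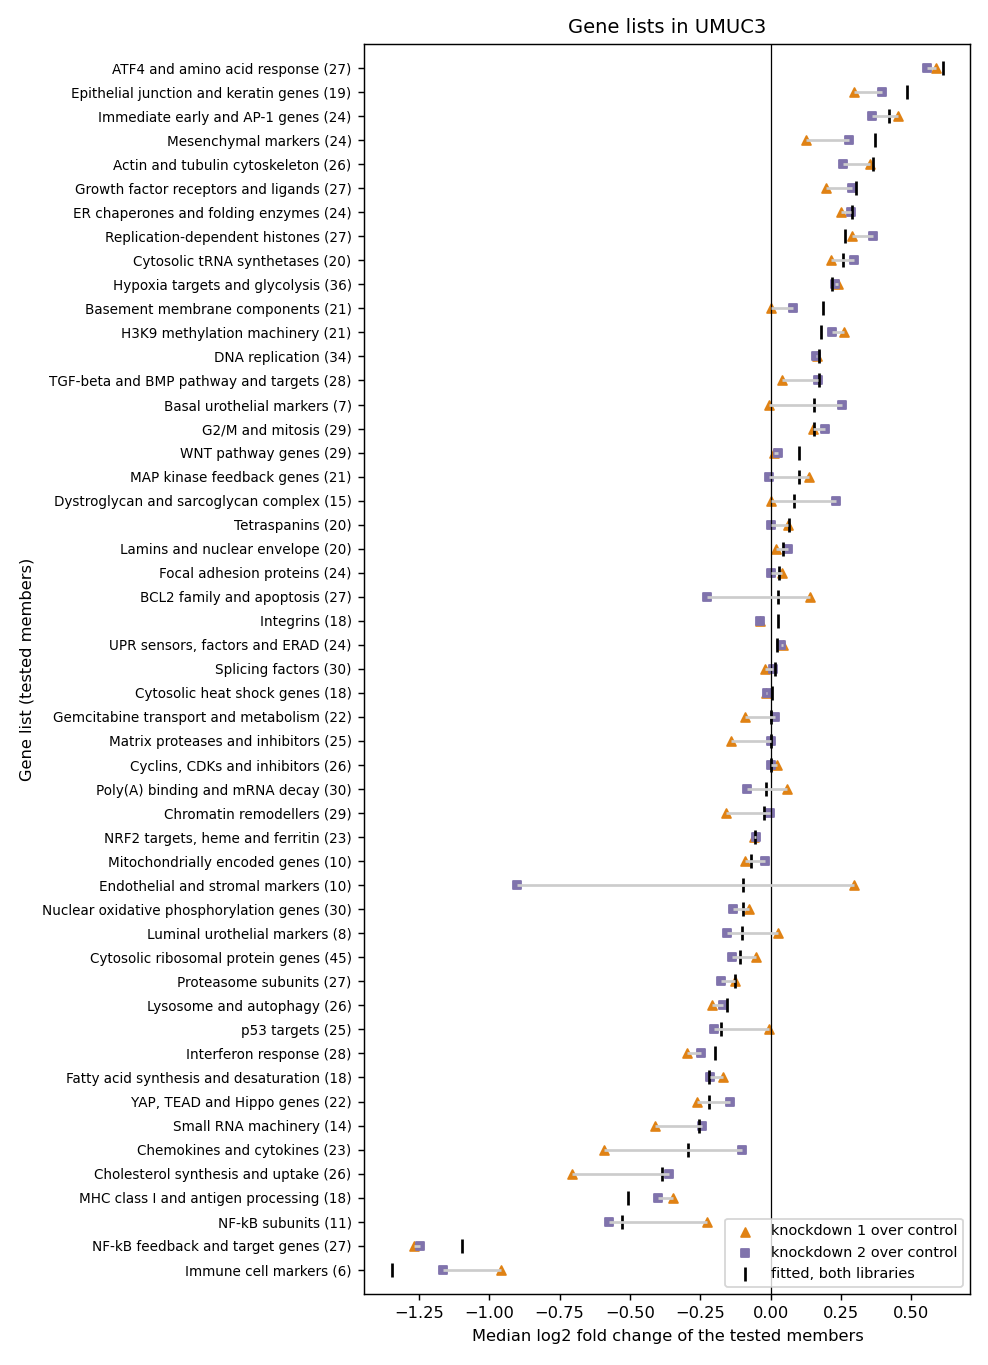
Median log2 fold change of the tested members of each gene list with at least 5 tested members: orange triangles are knockdown library 1 over the control, purple squares library 2, and black ticks the fitted value. The NF-kB feedback list lies near -1.1 to -1.3 and the amino acid response list near 0.6, each in both libraries, while most lists lie within 0.5 of 0; the immune list, lowest by the fitted value only, has 6 tested members, of which 5 are under 3 CPM on average.

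Against T24, the fold change of UMUC3 differed by the test of the difference in 12 genes (edgeR, 0.0579% of those tested; 2789 at an unadjusted p under 0.05), 9 of them among the 134. The T24 levels are again in the order of control, knockdown 1 and knockdown 2. AARS moved in opposite directions, with 129.9, 27.5 and 27.5 CPM in T24 (log2 -2.24 in T24; difference 5.57 ± 0.19, adjusted p = 0.0233). DAG1 was at 345, 374 and 366 CPM in T24 (difference 4.47 ± 0.13, adjusted p = 0.0210). MYH9 was at 4570.1, 3402 and 3309 CPM in T24 (difference 1.47 ± 0.075, adjusted p = 0.0487), and NDRG1 at 34.6, 74.9 and 76.0 CPM in T24 (2.32 ± 0.12, 0.0487), so NDRG1 stood higher with knockdown in both lines and by more in UMUC3. Differences also passed for MRFAP1 (350.1, 275 and 291 CPM in T24) and SEMA5A (2.79, 3.88 and 5.08 CPM), with AP2B1 and TAF7 after them. For the NF-kB genes no difference between the lines passed. TRAF1 had a difference of -4.02 ± 0.41 (edgeR adjusted p = 0.113), NFKBIA -1.90 ± 0.19 (0.111) and CXCL1 -2.33 ± 0.13 (0.0534). This does not show that the lines moved alike. In T24 the NF-kB feedback list had a median of -0.012, with 13 fold changes above 0 and 14 below. The chemokine and cytokine list had a median of 0.87 in T24, with 18 above 0 and 5 below.

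Of the 134 genes, 88 (65.7%) had the same direction in T24, against 50.3% of all tested genes, and 9 were also called there. Of these 9, AARS had the opposite sign and 8 the same: CDK4, WSB2 and SET were lower in both lines, and COL4A1, FMNL3, TUBB2B, SAMD1 and ZNF292 higher. For CDK4 the difference between the lines was -0.27 ± 0.15 (adjusted p = 0.525) and for COL4A1 0.036 ± 0.14 (adjusted p = 0.996), so neither passed. SET and ZNF292 were named here after their values were seen.

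**Figure D5:**
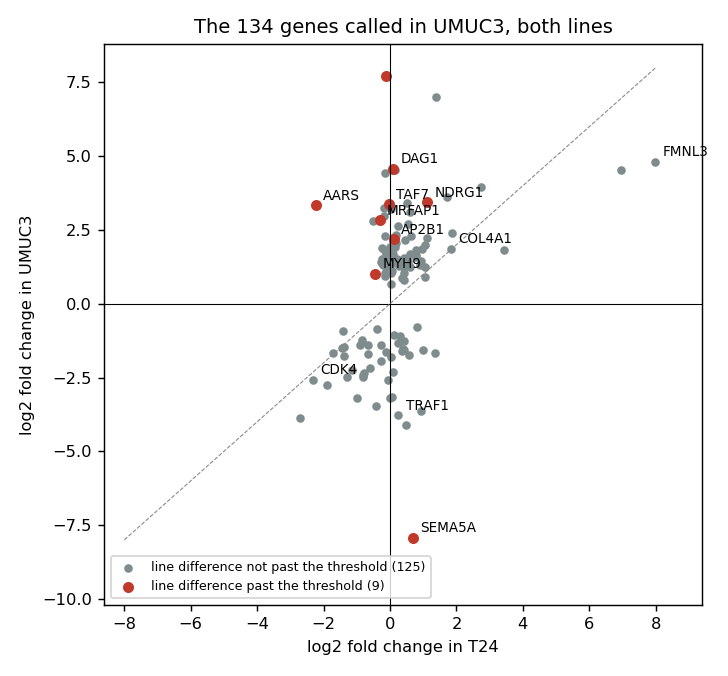
log2 fold change of the 134 called genes in T24 (horizontal) against UMUC3 (vertical), with the dashed line at equal change. Red points are the 9 genes whose difference between the lines passed, among which AARS is the point high in UMUC3 and low in T24; grey points are the other 125 genes.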

How the data were processed

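The comparison rests on 1 control and 2 knockdown libraries of UMUC3. The authors deposited raw read counts per transcript for 136953 transcripts, without normalisation. HISAT2 2.1.0, StringTie 1.3.3b, FastQC 0.11.5 and the hg38 build were used per the submitters' processing notes; their roles, strandedness and poly(A) selection are not given in the sources used here. The 15038 transcripts without a gene held 15.42 to 15.84% of the UMUC3 counts and were left out. The others were summed to 30717 genes, placed by GENCODE 29, where 121869 of 121915 transcripts matched. Genes that reached 10 counts in 2 or more libraries and 30 in total (20721) were tested with edgeR 4.0.16 (R 4.3.3): TMM, robust quasi-likelihood fit, 4 groups over all 6 libraries, Benjamini-Hochberg threshold 0.05. The edgeR 4 form of the test was used, to follow an earlier analysis of these data; the older form gave 10 and 3 calls, and both counts were known when this was settled. CPM use gene counts only, over library totals of the tested genes adjusted by TMM. The log2 values of single libraries use a prior count of 2. DESeq2 1.42.0 and limma 3.58.1 (voom), other scalings, filters, left-out libraries, a replicate block and composition-stable genes were alternatives.

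Members and the 52 gene lists were chosen with earlier results of these data known. Genes were named by rule: PTK2, PABPC1 and SETDB1; the 20 highest and 20 lowest called genes of at least 5 CPM on average; from each list every called member (at most 4 a direction), else that with the smallest p; and, for the lines, the 5 named genes with the smallest p. Further list members are examples given as values, and a gene named outside this rule is marked as such. A few genes that meet the rule are not reported here. Counts of 55071837 to 60056073 per library limit precision mainly for genes near 0. The older symbols CTGF, AARS, FAM208A and the like are those of the deposited table.

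The replicate numbers are the siRNA numbers of the titles. In T24 the titles and the column names give opposite numbers, so a block was fitted by each, and with 2 pairs the numbers are not known to mark shared cultures.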

Additional observations from a re-analysis of the deposited data

Results flagged for a closer look

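The knockdown effect differed between UMUC3 and T24 by the test of the difference (edgeR, adjusted p under 0.05) in these 8 genes called in UMUC3; values are the UMUC3 minus the T24 log2 fold change. SEMA5A had -8.61, MYH9 1.47, AP2B1 2.07 and NDRG1 2.32. MRFAP1 had 3.14, TAF7 3.42, DAG1 4.47 and AARS 5.57. The transcript shift in UMUC3 was 0.982 for SEMA5A, 0.629 for TAF7, 0.541 for AP2B1 and 0.460 for NDRG1. It was under 0.2 for MYH9, MRFAP1, DAG1 and AARS. These 8 were read over 1 control library in each line, and no difference passed when any 1 knockdown library was left out (2191 to 2614 genes at an unadjusted p under 0.05).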

How the results depend on the processing

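Each alternative changed one choice, except the replicate blocks, and counts are genes higher and lower in UMUC3 knockdown (89 and 45). RLE size factors gave 88 and 47, library size alone 87 and 47, and at least 5 CPM 126 and 61. DESeq2 gave 983 and 607, limma-voom 0 and 0, a fit without robust priors 17 and 6, no filter 144 and 80, and the 3 UMUC3 libraries alone 0 and 0 (2980 genes at an unadjusted p under 0.05). Leaving out 1 knockdown library of UMUC3 or T24 gave 0 to 0 calls in either direction. Composition-stable genes gave 226 and 138. Chosen after the data were seen, the older quasi-likelihood form gave 10 and 3. The replicate block by title numbers gave 0 and 0 (2631 genes at an unadjusted p under 0.05) and the replicate block by column numbers 0 and 0 (2081); both blocks needed the older form because the newer could not be fitted, so they compare with its 10 and 3. Both knockdown libraries of the 134 called genes lay on 1 side of the same control, so a change of sign was hardly possible. Of these 134 genes, 134 were also called by DESeq2, 133 with RLE and 23 without robust priors, and all tested kept their sign under every setting. Without 1 library their adjusted p values were 0.179 to 0.239.

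The difference between the lines (12 genes) gave 5 with RLE, 1003 with DESeq2, 0 with limma-voom, 0 to 0 without 1 knockdown library, 0 with the replicate block by title numbers, 82 among composition-stable genes and 5 with the older form. Among the 92 genes named by the rule, SETDB1 changed sign, with -0.22 to 0.22 when 1 UMUC3 knockdown library was left out and -0.29 with the replicate block by column numbers; the cause was not tested. No other of these 92 changed sign; genes named only as examples were not rerun, and the knockdown libraries of TNIP1 (204, 210.4 and 92.6 CPM) lie on both sides of the control. For the 92, 885 values kept their side of the threshold, 574 fell behind it and 50 came past it. Of the list medians under other settings 157 moved by less than the spread between the knockdown libraries and 96 by more. Depth limits mainly genes near 0.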

Other observations

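The genes described here were called over all genes in UMUC3 (edgeR adjusted p under 0.05), belong to no gene list, and were singled out after their values were seen. They are given singly and show nothing about a pathway. The kinesin genes KIF1C (from 58.1 CPM to 372 and 345 CPM) and KIF3C (from 18.3 CPM to 61.6 and 62.6 CPM) and the dynein adaptor BICD2 (from 32.1 CPM to 121 and 119 CPM) rose, while the dynactin gene DCTN4 fell as given above. The clathrin adaptor genes AP2B1 (from 79.7 CPM to 365 and 359 CPM) and AP1S1 (from 101 CPM to 252 and 235 CPM) rose. AP2B1 had a transcript shift of 0.541. LIMK1, which phosphorylates cofilin (from 72.8 CPM to 176 and 169.6 CPM), WDR1, which promotes filament disassembly (from 264 CPM to 463 and 453 CPM), and TMSB4X, which binds actin monomers (from 1101 CPM to 1775 and 1714 CPM), rose. SDC4, a syndecan (from 226 CPM to 569.9 and 564 CPM), and EXTL3, a glycosyltransferase (from 45.8 CPM to 122 and 125 CPM), rose too. RYK, a WNT receptor, rose from 15.5 CPM to 75.6 and 73.7 CPM.

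UGCG, the glucosylceramide synthase, went from 123 CPM to 37.3 and 37.8 CPM and ODC1, the rate-limiting enzyme of polyamine synthesis, from 1100.3 CPM to 529 and 522 CPM; both fell. MAT2A, which makes the methyl donor of the cell, rose from 96.0 CPM to 319.6 and 349.8 CPM with a transcript shift of 0.778. The phosphatase PTPN11 (from 214 CPM to 477 and 508 CPM) and the SRC-restraining kinase CSK (from 31.1 CPM to 88.9 and 85.2 CPM) rose. The histone deacetylase HDAC1 (from 122 CPM to 272 and 260.2 CPM), SMC1A, a cohesin subunit (from 63.6 CPM to 144 and 151 CPM), and SF3B2, a spliceosome subunit (from 156 CPM to 304 and 298 CPM), rose, and MORF4L1 (from 255 CPM to 90.8 and 101 CPM) and POLE3 (from 156 CPM to 59.0 and 53.5 CPM) fell. EEF1A1P5, annotated as a pseudogene of the elongation factor EEF1A1, went from 136 CPM to 689.7 and 670.0 CPM and may hold reads of its parent gene, so its value is uncertain.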
